A study of Mus musculus with 2 samples.

Results

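The genes described here encode the cyclins, the cyclin-dependent kinases (CDKs), their inhibitors and phosphatases, and the E2F, DP, Rb and MuvB proteins that control cell cycle transcription. They were taken from a list of 45 genes, of 19938 genes that the array measured with a probe set carrying a single gene symbol. Of the 45, 43 had such a probe set. *Ccnb1*, which encodes cyclin B1, and *Cdkn1a*, which encodes the CDK inhibitor p21, did not and were not analysed here. The cells were CD3+CD4+ T cells sorted by FACS from the pancreatic lymph nodes (PLN) of pooled BDC mice, which are NOD mice whose T cells carry the transgenic alpha and beta chains of the diabetogenic BDC clonotypic TCR. One pool came from mice that received the nondepleting anti-CD4 antibody YTS177 (ND αCD4), and the other from mice that received the isotype control Ab 2A3, with 1 array for each pool. Both were taken at 48 hours from mice of 8 weeks, and a dose of 1 mg is labelled for the isotype control Ab. The labels name the BDC clone by another number than the methods do, so the clone is not numbered here. With 1 array per condition the differences have no replicate check, and no test was run, so that precision is limited by their number.

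A resting T cell enters the cell cycle when TCR and cytokine signals raise D-type cyclins, whose kinases CDK4 and CDK6 phosphorylate Rb and free E2F factors from it. E2F then drives cyclin E, cyclin A and the replication genes, and CDK2 and later CDK1 carry the cell through S phase and mitosis. In quiescent cells the DREAM complex, made of p130 or p107, E2F4 or E2F5, a DP partner and the MuvB core, holds the same genes down, and in dividing cells MuvB joins B-Myb and FoxM1 to activate the mitotic ones.

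Several genes of S phase and mitosis, among them those of cyclin A2, CDK1 and cyclin B2, were lower after ND αCD4, while those of the D-type cyclins and their kinases, the measured CDK inhibitors, and the pocket and MuvB proteins were within 1.5-fold of isotype control. Each difference is given as the log2 signal after ND αCD4 less that after isotype control Ab (the log2 ratio), and a gene was counted as lower or higher from 1.5-fold upward, a log2 ratio of 0.585 in size. A gene was called detected if its signal exceeded background in at least 1 array, and background was set by probe sets of olfactory and vomeronasal receptors, whose 95th percentile was 7.56 in the ND αCD4 array and 7.64 in the isotype control array. Of the 43 measured regulators, 42 were detected and 39 exceeded background in both arrays. At least 1.5-fold lower were 11 of the 42 (26.2%), against 1.01% of all 13222 detected genes, and 0 of the 42 were at least 1.5-fold higher, against 0.212% of all. *Ccne2*, *E2f8* and *Chek1* are among the 11 and exceeded background in the isotype control array only, so they passed the filter through the array in which they were high. Of the 39 regulators above background in both arrays, 8 were lower (20.5%), against 0.86% of the 12674 such genes, 0 were higher, against 0.197%, and their median log2 ratio was -0.17. The median log2 ratio of the 42 was -0.23, against -0.01 over all detected genes. Of the 42, 31 were below 0 and 11 above 0, against 6966 and 6170 of all 13222 detected genes. The 11 were *Ccna2*, *Chek1*, *Cdk1*, *E2f1*, *E2f8*, *Wee1*, *Cks1b*, *Cks2*, *Ccnb2*, *Ccne2* and *Mybl2*. *Ccna2* had the third and *Cdk1* the tenth lowest measured log2 ratio of all detected genes. At a signal of 11 or more, 0 of 8 regulators were lower (0.503% of all detected genes at that level), while 6 of 21 were lower from 9 to 11 (1.10% of all) and 5 of 13 under 9 (1.16% of all), or 2 of 10 under 9 among those above background in both arrays. In RNA of a bulk sort, fewer cells of a kind and less RNA per cell cannot be told apart.

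**Figure D1:**
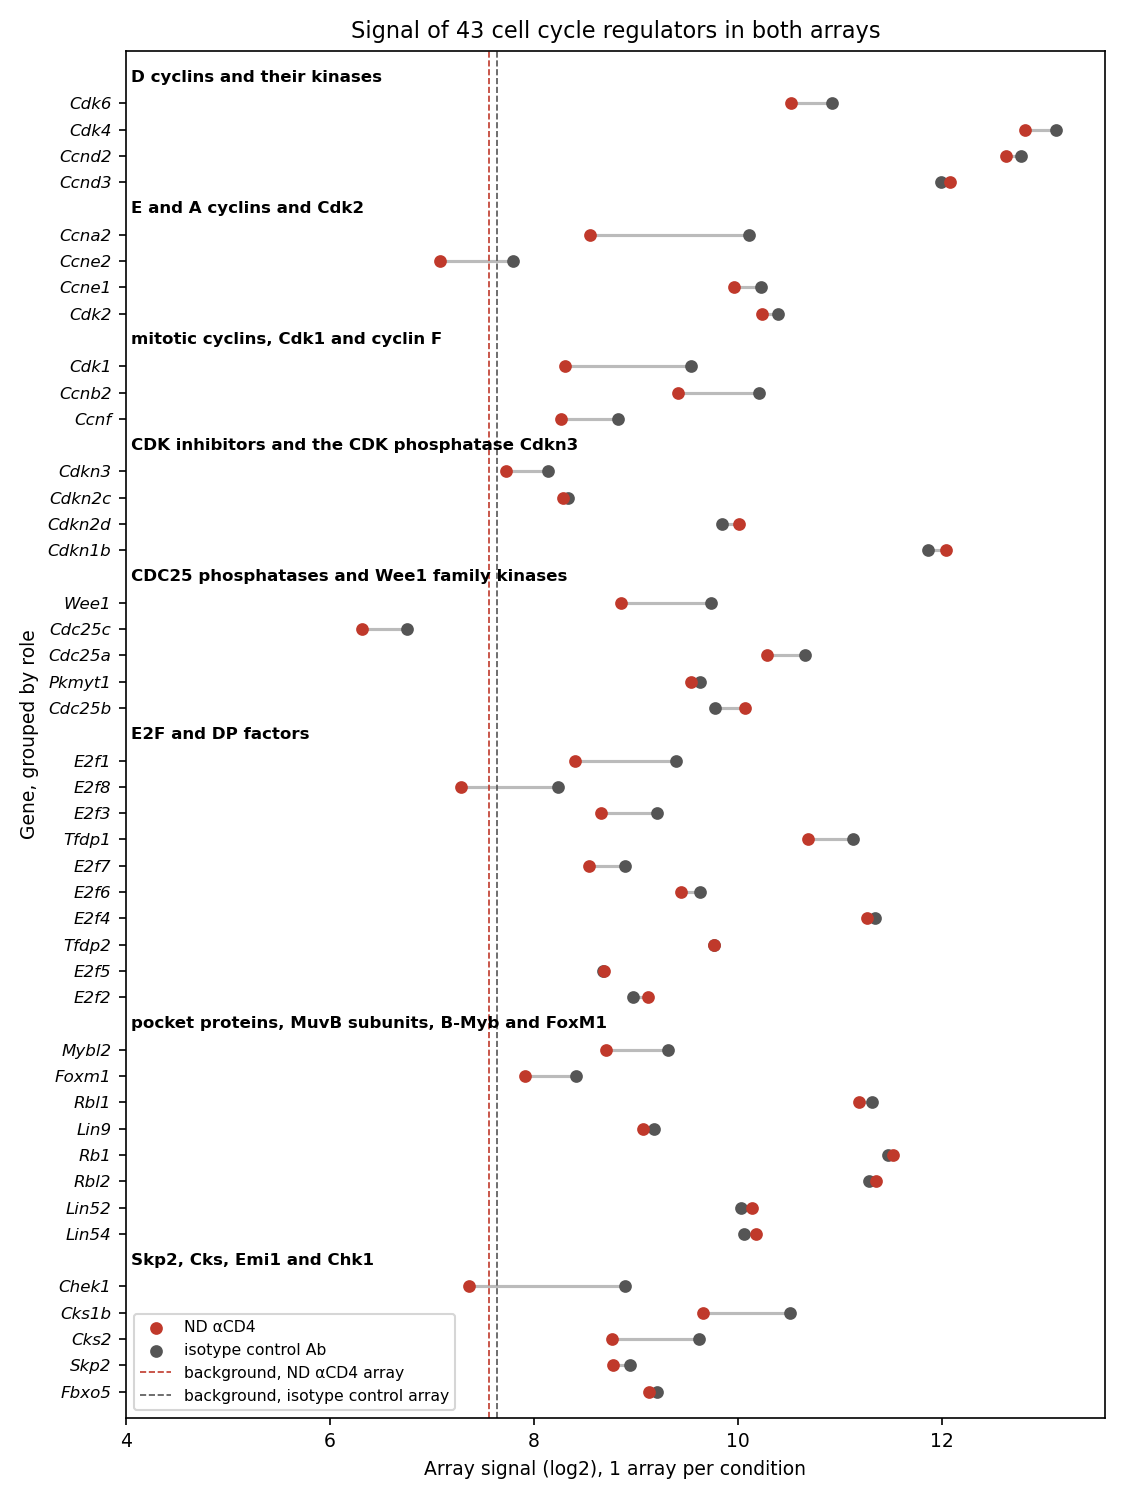
Array signal (log2, x axis) of each of the 43 measured regulators (rows, grouped by role and ordered by log2 ratio) in the ND αCD4 array (red) and the isotype control array (gray), 1 array each, with dashed lines at the background of each array. *Ccna2*, *Cdk1*, *E2f1* and *Chek1* have long lines with the red point to the left, and *Rb1*, *E2f5* and *Tfdp2* have points that nearly coincide. Positions along the axis can be read within a gene but not between genes, whose probes differ.

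**Figure D2:**
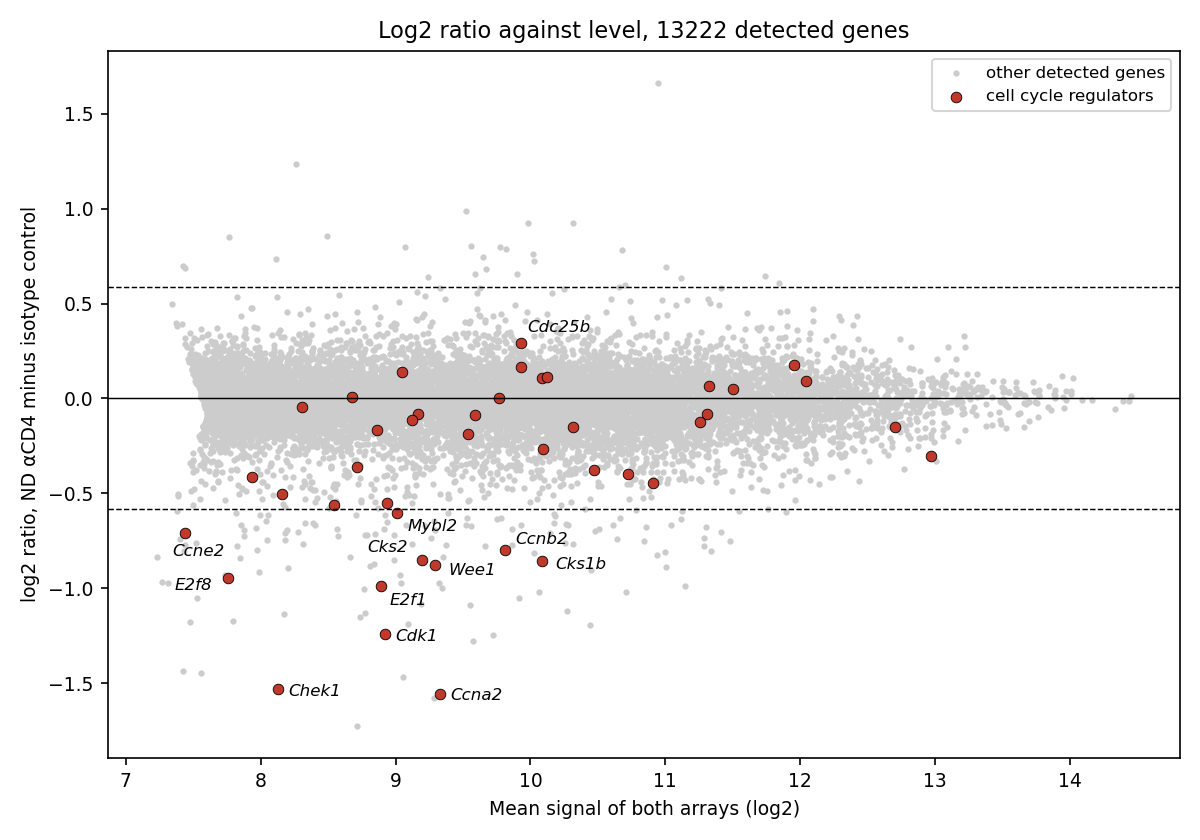
Log2 ratio (ND αCD4 minus isotype control, y axis) against the mean log2 signal of both arrays (x axis) for 13222 detected genes, 1 point per gene, with the 42 detected regulators in red, 0 as a solid line and the 1.5-fold limits as dashed lines. The 11 regulators below the lower limit are named, and none lies above the upper limit, where *Cdc25b* at 0.29 comes closest.

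Sequences near the start of these genes are shown because E2F, DREAM and MuvB are known to act through sites there, and because genes with and without a lower signal share them. RefSeq promoters of GRCm38.p6, from 250 bases before to 50 after each annotated start, were found for 34 of the 45 genes, 32 of them detected. Both strands were searched for the letters TTTCCCGC, TTTGGCGC, TTTCGCGC or TTTGCCGC (E2F), TTTGAA or TTCGAA (CHR, the element bound by Lin54) and CCAAT (bound by NF-Y). E2F letters were found in 9 of the 34 genes (26.5%, against 2.60% of the 27025 genes in the table), CHR letters in 13 (38.2%, against 21.7%), CCAAT in 22 (64.7%, against 41.1%), and CHR with CCAAT in the same promoter in 12 (35.3%, against 8.61%). Of the 10511 detected genes in the table, 4.49% had E2F letters, 16.1% CHR letters, 41.5% CCAAT and 6.59% CHR with CCAAT. A match is a description of these letters only, and its absence says nothing of a factor. The windows below run from 140 bases before to 20 after the start, with the matched letters in capitals. The last 20 bases lie in the transcribed part of the gene.
*Cdk1* (chr10:69352893-69353052, minus strand): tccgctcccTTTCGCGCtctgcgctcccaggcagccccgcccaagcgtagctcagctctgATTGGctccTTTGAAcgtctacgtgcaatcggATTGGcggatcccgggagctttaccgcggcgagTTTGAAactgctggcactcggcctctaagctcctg
*Ccnb2* (chr9:70421535-70421694, minus strand): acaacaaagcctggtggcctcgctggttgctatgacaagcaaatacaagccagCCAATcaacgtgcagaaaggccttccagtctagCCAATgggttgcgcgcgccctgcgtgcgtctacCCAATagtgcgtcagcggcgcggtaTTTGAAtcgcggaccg
*Cks1b* (chr3:89418272-89418431, minus strand): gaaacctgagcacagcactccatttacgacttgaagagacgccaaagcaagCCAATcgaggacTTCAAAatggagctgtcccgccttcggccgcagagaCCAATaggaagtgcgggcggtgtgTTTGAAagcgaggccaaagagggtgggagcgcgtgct
*E2f8* (chr7:48881577-48881736, minus strand): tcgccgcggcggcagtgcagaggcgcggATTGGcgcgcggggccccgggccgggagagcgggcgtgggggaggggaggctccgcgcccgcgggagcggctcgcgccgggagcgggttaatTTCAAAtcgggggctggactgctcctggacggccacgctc
*Ccnf* (chr17:24251390-24251549, minus strand): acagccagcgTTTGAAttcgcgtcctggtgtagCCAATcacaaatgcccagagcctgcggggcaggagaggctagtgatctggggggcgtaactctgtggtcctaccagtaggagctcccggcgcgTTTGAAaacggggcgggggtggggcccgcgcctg
*Fbxo5* (chr10:5805446-5805605, minus strand): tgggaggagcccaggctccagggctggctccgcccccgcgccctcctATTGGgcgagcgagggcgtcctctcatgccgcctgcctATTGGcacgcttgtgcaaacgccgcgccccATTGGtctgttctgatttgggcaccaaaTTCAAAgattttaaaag
*Cdc25b* (chr2:131186808-131186967, plus strand): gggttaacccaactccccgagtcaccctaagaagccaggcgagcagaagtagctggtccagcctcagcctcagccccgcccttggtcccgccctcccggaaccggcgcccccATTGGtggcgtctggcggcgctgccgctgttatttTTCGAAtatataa
*Cdkn1b* (chr6:134920261-134920420, plus strand): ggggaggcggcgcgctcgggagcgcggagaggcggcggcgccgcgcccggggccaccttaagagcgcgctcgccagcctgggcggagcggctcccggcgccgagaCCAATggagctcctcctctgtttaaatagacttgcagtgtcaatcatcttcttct

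The first 4 windows belong to genes at least 1.5-fold lower after ND αCD4, and *Ccnf* was just short of that. All 4 have CHR and CCAAT letters. The other lower genes with a promoter are not shown, namely *Cks2* with CCAAT only and *Chek1*, *E2f1* and *Mybl2* with none of the letters. *Cdk1* has CHR letters 15 and 71 bases before its start, CCAAT on the reverse strand 48 and 80 bases before it, and E2F letters 131 bases before it. *Ccnb2* has CCAAT 21, 54 and 87 bases before its start and CHR letters just after it. CHR and CCAAT letters also stand near the start of *Fbxo5*, with CCAAT on the reverse strand 25, 55 and 93 bases before it. They stand near that of *Cdc25b* too, where the CHR letters are TTCGAA and not TTTGAA. Neither *Fbxo5* nor *Cdc25b* has E2F letters, and neither was lower by 1.5-fold. *Cdkn1b* has CCAAT without CHR letters. Over the 32 detected genes, the 12 with CHR and CCAAT had a median log2 ratio of -0.48 with 4 at least 1.5-fold lower, and the other 20 had a median of -0.23, also with 4 lower. For CCAAT the order was the other way, with a median of -0.17 and 5 of 21 lower among genes with it, and -0.30 and 3 of 11 lower among genes without it. With E2F letters 1 of 9 was lower (median -0.36), and without them 7 of 23 were (median -0.27). The 8 detected genes with none of the letters include *Chek1*, *E2f1* and *Mybl2*, all 3 lower, and their median was -0.35. Among genes above background in both arrays, 3 of 11 with CHR and CCAAT were lower (median -0.41), and 2 of 7 with none of the letters (median -0.30). Beside these counts, 1.01% of all detected genes were at least 1.5-fold lower, and 0.86% of those above background in both arrays. All detected genes with a promoter had medians of -0.04 with CHR and CCAAT and -0.02 with CCAAT. Their medians were -0.04 with E2F letters and -0.002 with none of the letters. These medians are descriptions, and the genes differ in level and in function as well as in these letters.

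**Figure D3:**
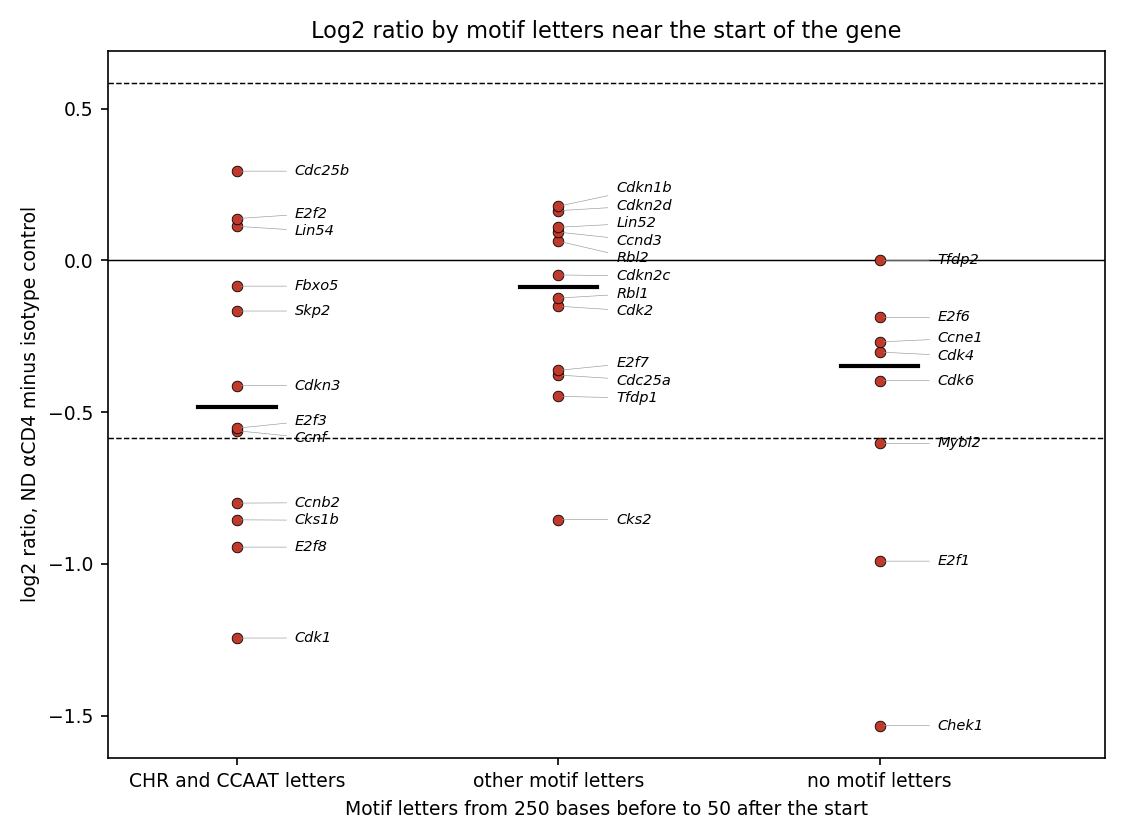
Log2 ratio (ND αCD4 minus isotype control, y axis) of 32 detected regulators by the letters found from 250 bases before to 50 after the start (x axis), 1 point per gene, with group medians as bars, 0 as a solid line and the 1.5-fold limits as dashed lines. Genes with CHR and CCAAT letters run from *Cdk1* at -1.24 to *Cdc25b* at 0.29, and genes with no match from *Chek1* at -1.53 to *Tfdp2* at 0.00.

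The D-type cyclins and their kinases, which couple antigen and growth signals to the cycle, were within 1.5-fold, 0 of 4 being lower or higher. *Cdk6* had a signal of 10.53 after ND αCD4 and 10.92 after isotype control Ab on the log2 scale, a log2 ratio of -0.40. *Cdk4* had 12.82 after ND αCD4 and 13.12 after isotype control Ab, a log2 ratio of -0.30. Both kinases were thus lower by less than 1.5-fold. The cyclins that activate them stood nearer to 0, with *Ccnd2* at 12.63 after ND αCD4 and 12.78 after isotype control Ab (log2 ratio -0.15) and *Ccnd3* at 12.09 after ND αCD4 and 11.99 after isotype control Ab (log2 ratio 0.09). For scale, the log2 ratio of a single probe set had an SD within a gene of 0.0929 (550 genes with 2 detected probe sets). That SD covers the probes but not differences between mice. Over all detected genes, 2.5% had a log2 ratio below -0.39 and 2.5% one above 0.28. *Cdk4* and both cyclin genes lay inside that range, and *Cdk6* lay just below it.

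Among the cyclins that work with CDK2 in S phase, cyclin A2 was lower, and the cyclin E2 gene was not above background after ND αCD4. *Ccna2*, whose product activates CDK2 and then CDK1, had a signal of 8.55 after ND αCD4 and 10.11 after isotype control Ab, and was 2.94-fold lower. *Ccne2* was 7.08 after ND αCD4, under the background of that array, and 7.79 after isotype control Ab, so that its measured log2 ratio of -0.71 gives only a bound of at least 1.17-fold lower, short of the size limit and smaller than the difference measured for the other cyclin E gene. *Ccne1*, that other gene, was 9.96 after ND αCD4 and 10.23 after isotype control Ab (log2 ratio -0.27). Their kinase gene *Cdk2* was 10.24 after ND αCD4 and 10.39 after isotype control Ab (log2 ratio -0.15). All 4 genes were below 0, as were 6966 of all 13222 detected genes, and the log2 ratio of *Ccna2* was far below that of *Cdk2*.

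The mitotic kinase and its cyclin were lower together. *Cdk1*, the kinase that drives entry into mitosis, had a signal of 8.30 after ND αCD4 and 9.55 after isotype control Ab, and was 2.37-fold lower. *Ccnb2*, which encodes its partner cyclin B2, was 9.41 after ND αCD4 and 10.21 after isotype control Ab, and was 1.74-fold lower. *Ccnf*, whose product cyclin F is a substrate receptor of a ubiquitin ligase and activates no CDK, was 8.26 after ND αCD4 and 8.82 after isotype control Ab, or 1.48-fold lower, just inside the size limit. All 3 measured genes of this group were below 0, as were 6966 of all 13222 detected genes, and their median log2 ratio was -0.80.

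The measured CDK inhibitors were within 1.5-fold of isotype control, unlike the cyclin genes *Ccna2* and *Ccnb2*. *Cdkn1b*, which encodes p27 and is a known target of Foxo factors, had a signal of 12.05 after ND αCD4 and 11.87 after isotype control Ab, a log2 ratio of 0.18, and a second probe set of the gene gave 0.46 at a lower signal. *Cdkn2d*, which encodes the CDK4 and CDK6 inhibitor p19, was 10.01 after ND αCD4 and 9.84 after isotype control Ab (log2 ratio 0.16). Both inhibitors were a little higher, by less than 1.5-fold. *Cdkn2c*, which encodes the related inhibitor p18, was 8.29 after ND αCD4 and 8.33 after isotype control Ab (log2 ratio -0.05). *Cdkn3*, which encodes a phosphatase that removes an activating phosphate from CDKs and whose transcript is known to peak in mitosis, was 7.73 after ND αCD4 and 8.14 after isotype control Ab (log2 ratio -0.41), close to background in both arrays.

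The enzymes that add and remove the inhibitory phosphate of CDK1 differed among themselves. *Wee1*, the nuclear kinase that adds it, had a signal of 8.86 after ND αCD4 and 9.73 after isotype control Ab, and was 1.83-fold lower. *Pkmyt1*, which encodes the membrane-bound kinase of the same family, was 9.54 after ND αCD4 and 9.63 after isotype control Ab (log2 ratio -0.09). Of the 2 kinases, then, only *Wee1* passed the size limit. The phosphatase genes differed from each other, with *Cdc25a*, which acts at the G1/S transition, at 10.29 after ND αCD4 and 10.66 after isotype control Ab (log2 ratio -0.38), and *Cdc25b*, which starts the activation of CDK1, at 10.07 after ND αCD4 and 9.78 after isotype control Ab (log2 ratio 0.29). *Cdc25b* had the highest log2 ratio of the 42 detected regulators and ranked 274th from the top of all detected genes. *Cdc25c* did not exceed background in either array (6.31 after ND αCD4 and 6.76 after isotype control Ab).

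Of the E2F and DP genes, 2 of 10 were at least 1.5-fold lower, the activator *E2f1* and the atypical repressor *E2f8*. The share over all detected genes was 1.01%. *E2f8* passed the filter only through the isotype control array, in which it was high. Among the 9 E2F and DP genes above background in both arrays, *E2f1* alone was lower, against 0.86% of all such genes. *E2f1*, an activator that E2F itself induces, had a signal of 8.40 after ND αCD4 and 9.39 after isotype control Ab, and was 1.99-fold lower. *E2f3*, another activator, was 8.66 after ND αCD4 and 9.21 after isotype control Ab (log2 ratio -0.55), just inside the limit, and its other probe set gave -0.27. *E2f2*, the remaining activator, was 9.12 after ND αCD4 and 8.98 after isotype control Ab (log2 ratio 0.14). The activators thus differed from each other. *E2f8*, an atypical E2F that represses E2F targets without a DP partner, was 7.29 after ND αCD4, below background, and 8.23 after isotype control Ab, and was at least 1.59-fold lower. *E2f7*, its closest relative, was 8.54 after ND αCD4 and 8.90 after isotype control Ab (log2 ratio -0.36).

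The repressive E2F genes other than the atypical ones had log2 ratios between -0.19 and 0.01. *E2f4*, the main E2F of the DREAM complex, had 11.27 after ND αCD4 and 11.35 after isotype control Ab (log2 ratio -0.08), and *E2f5* had 8.69 after ND αCD4 and 8.68 after isotype control Ab (log2 ratio 0.01). *E2f6*, a repressor that does not bind pocket proteins, had 9.44 after ND αCD4 and 9.63 after isotype control Ab (log2 ratio -0.19). The DP partner genes differed from each other. *Tfdp1* was 10.69 after ND αCD4 and 11.13 after isotype control Ab (log2 ratio -0.45), and its other probe set gave -0.67, past the size limit. *Tfdp2* was 9.77 in both arrays (log2 ratio 0.00).

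The pocket proteins and the MuvB core differed little, while the genes of their partners in dividing cells had log2 ratios of -0.50 or lower. *Rb1* had a signal of 11.53 after ND αCD4 and 11.47 after isotype control Ab (log2 ratio 0.05). *Rbl2*, which encodes p130, the pocket protein of quiescent cells, had 11.35 after ND αCD4 and 11.29 after isotype control Ab (log2 ratio 0.06), and *Rbl1*, which encodes p107, had 11.19 after ND αCD4 and 11.32 after isotype control Ab (log2 ratio -0.12). The MuvB genes *Lin52* (10.14 after ND αCD4 and 10.03 after isotype control Ab), *Lin54* (10.18 after ND αCD4 and 10.06 after isotype control Ab) and *Lin9* (9.07 after ND αCD4 and 9.18 after isotype control Ab) had log2 ratios of 0.11, 0.11 and -0.12. These 6 genes lay between -0.12 and 0.11. *Mybl2*, which encodes B-Myb, was 8.71 after ND αCD4 and 9.31 after isotype control Ab, and was 1.52-fold lower, just past the limit. *Foxm1* was 7.91 after ND αCD4 and 8.41 after isotype control Ab (log2 ratio -0.50), close to background.

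Of the adaptors of CDK and ubiquitin ligase function and the checkpoint kinase, 3 of 5 were lower (60.0%), against 1.01% of all detected genes. *Chek1* is among the 3 and passed the filter only through the isotype control array, in which it was high. Of the 4 genes above background in both arrays, *Cks1b* and *Cks2* were lower, against 0.86% of all such genes. *Chek1*, which encodes the kinase CHK1 that restrains CDC25 when replication forks stall, was 7.36 after ND αCD4, below background, and 8.89 after isotype control Ab, and was at least 2.52-fold lower. *Cks1b* and *Cks2*, which encode small CDK-binding subunits, were lower to the same degree. *Cks1b* had 9.66 after ND αCD4 and 10.52 after isotype control Ab and was 1.81-fold lower. *Cks2* had 8.77 after ND αCD4 and 9.62 after isotype control Ab and was also 1.81-fold lower, and its other probe sets gave log2 ratios of -0.81 and -0.71. *Skp2*, whose product uses Cks1 to mark p27 for degradation, was 8.78 after ND αCD4 and 8.95 after isotype control Ab (log2 ratio -0.17). *Fbxo5*, which encodes Emi1, an inhibitor of the ubiquitin ligase APC/C, was 9.13 after ND αCD4 and 9.21 after isotype control Ab (log2 ratio -0.08). The adaptor genes of CDKs were thus lower and the F-box genes of this group were within 1.5-fold.

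Grouped by the phase in which each transcript is known to peak, mostly from cultured human cells, the regulators of G2 and M were the lowest. Of 9 detected genes with a peak in G2 or M, 5 were at least 1.5-fold lower (55.6%), with a median log2 ratio of -0.80, and 8 were below 0, the exception being *Cdc25b*. Of 14 with a peak at G1/S, 5 were lower (35.7%), with a median of -0.32, and 13 were below 0, the exception being *E2f2*. *Ccne2*, *E2f8* and *Chek1* are among those 5, and of the 11 G1/S genes above background in both arrays 2 were lower (18.2%), with a median of -0.17. All 9 detected G2 or M genes exceeded background in both arrays. Of the 19 detected genes with no phase assigned, *Wee1* alone was lower (5.26%), and their median was -0.08. For these groups the background stays 1.01% of all detected genes lower, with a median of -0.01 and 6966 of 13222 below 0.

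**Figure D4:**
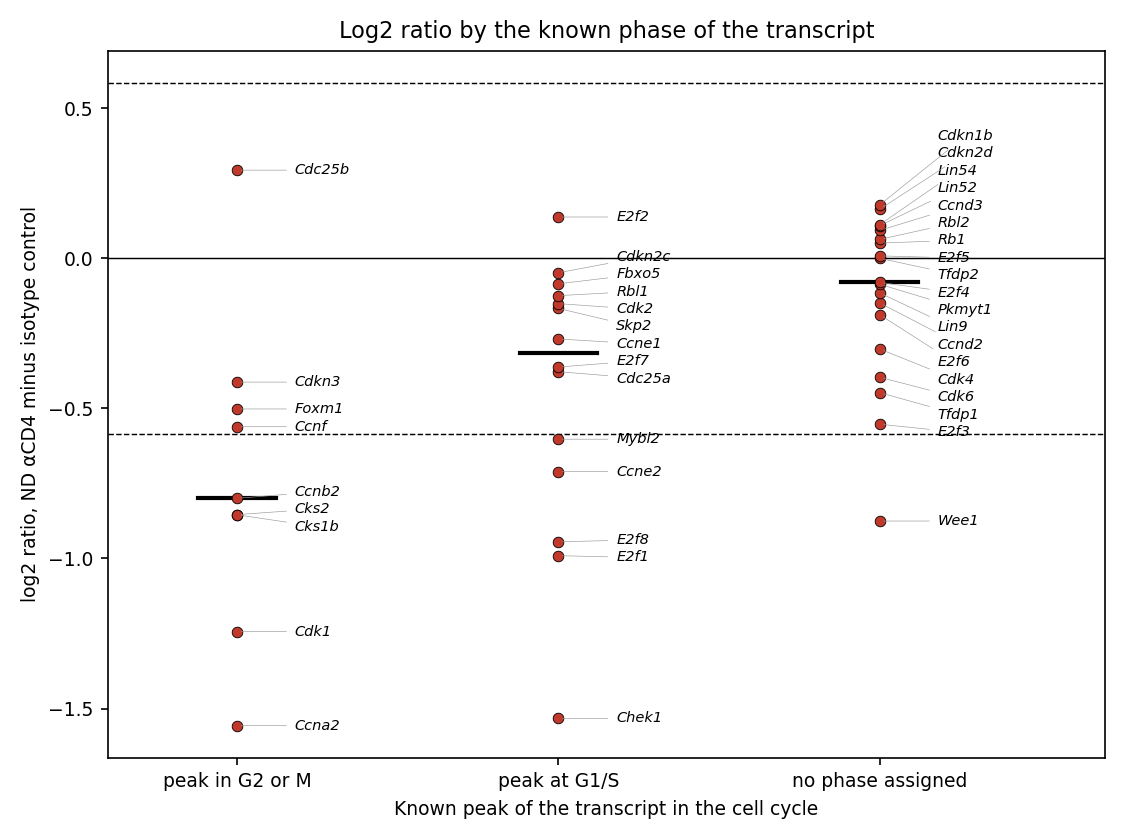
Log2 ratio (ND αCD4 minus isotype control, y axis) of 42 detected regulators by the phase in which the transcript is known to peak (x axis), 1 point per gene, with group medians as bars, 0 as a solid line and the 1.5-fold limits as dashed lines. Medians are -0.80 for G2 or M, -0.32 for G1/S (-0.17 without the 3 genes below background after ND αCD4) and -0.08 for genes with no phase assigned.

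Of the other regulators of the cycle, listed by function, 1 was at least 1.5-fold lower. The list of 84 holds other cyclins and CDKs, subunits and activators of the APC/C, SCF ubiquitin ligases, checkpoint kinases, mitotic kinases and antiproliferative genes, of which 80 were measured and 76 detected. *Aurkb*, which encodes the mitotic kinase Aurora B, was that gene (8.55 after ND αCD4 and 9.52 after isotype control Ab, log2 ratio -0.97), and 0 were higher. That share of 1.32% is close to the 1.01% of all detected genes, and the median of -0.03 is close to the -0.01 of all. *Ube2c*, which encodes a ubiquitin-conjugating enzyme of the APC/C, had 8.58 after ND αCD4 and 9.16 after isotype control Ab (log2 ratio -0.58), just inside the limit. *Plk1*, which encodes a mitotic kinase, had 8.81 after ND αCD4 and 9.33 after isotype control Ab (log2 ratio -0.51). *Ube2c* and *Plk1* were named after their values were seen. *Aurka*, also a mitotic kinase gene, had a log2 ratio of -0.17. *Tob1*, an antiproliferative gene, had the highest log2 ratio of the list, 0.44. Of the 76, 48 were below 0 and 28 above 0, against 6966 and 6170 of all 13222 detected genes.

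The markers of the sort stood at nearly equal levels. All 5 measured T cell markers lay between -0.14 and 0.06 in log2 ratio, and *Cd4* had 13.48 after ND αCD4 and 13.38 after isotype control Ab. The proliferation markers *Mki67* (8.94 after ND αCD4 and 10.22 after isotype control Ab) and *Top2a* (8.32 after ND αCD4 and 9.79 after isotype control Ab) were lower with the mitotic regulators, and *Pcna* had 12.35 after ND αCD4 and 12.68 after isotype control Ab (log2 ratio -0.33). Markers of CD8 T cells, which the CD4 gate should leave out, were above 0. *Cd8a* had 10.39 after ND αCD4 and 9.67 after isotype control Ab. It was 1.65-fold higher, past the size limit, and ranked 16th from the top of all detected genes. *Cd8b1* had 11.83 after ND αCD4 and 11.38 after isotype control Ab, or 1.37-fold higher. Their summed linear signal was 4984 after ND αCD4 and 3478 after isotype control Ab. *Dntt*, a gene of developing lymphocytes, had 8.88 after ND αCD4 and 7.65, close to background, after isotype control Ab. It was 2.36-fold higher and ranked 2nd from the top of all detected genes. *Ptcra*, another marker of immature T cells, had 8.11 after ND αCD4 and 7.99 after isotype control Ab (log2 ratio 0.12). *Rag1* and *Rag2* did not exceed background. Of 5 natural killer cell markers, 3 did not exceed background, and *Klrd1* had 8.19 after ND αCD4 and 7.34, below background, after isotype control Ab. *Tyrobp*, the only one above background in both arrays, had 8.24 after ND αCD4 and 8.28 after isotype control Ab. All 3 regulatory T cell genes were below 0, as were 6966 of all 13222 detected genes, and their median log2 ratio was -0.28. *Ikzf2* had 11.60 after ND αCD4 and 11.88 after isotype control Ab, *Foxp3* had 10.39 after ND αCD4 and 10.46 after isotype control Ab, and *Il2ra*, which is also an activation gene, had 10.82 after ND αCD4 and 11.42 after isotype control Ab and was 1.51-fold lower. The median log2 ratios of detected markers of B cells, plasma cells, macrophages, dendritic cells, neutrophils, red blood cells and stroma lay between -0.05 and 0.28, and none of them passed 1.5-fold. The part of these markers in the differences between regulators was not tested.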

How the data were processed

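Signals of 2 arrays, 1 per condition, were used. The values that the authors deposited are log2 signals of probe sets, and their scale was inferred from their range (2.52 to 14.7, medians 8.15 in both arrays). Affymetrix Expression Console is named in the processing notes of the submitters, but its version, background correction and normalization were not given in the sources used here, so deposited values were used without rescaling. The probe set identifiers match an earlier array design than the one named in the methods. Probe sets were named through the platform annotation (21789 with 1 symbol, 1621 with several, 12147 with none), and the probe set with the highest mean stood for each gene. Background came from 1210 receptor probe sets. A gene below background in 1 array has only a bound, taken from the background of that array.

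The rule names all listed regulators, other cell cycle regulators past 1.5-fold, and up to 2 detected markers of the highest level in a list. *Ube2c*, *Plk1*, *Aurka*, *Tob1*, *Top2a*, *Foxp3*, *Rag1* and *Rag2* fall outside it and were named after their values were seen. Members, lists and rules were chosen with earlier results of these data known, and the tiers of signal level and the bases of the sequences shown were chosen after the values were seen. Alternatives were 3 other scalings (median, lowess with fraction 0.3 and 3 iterations, quantile), a floor at background, other choices of probe set, other filters and a 2-fold limit. Counts by phase, signal level and motif letters among genes above background in both arrays were added after the data were seen. The counts past the 1.5-fold limit were tested under each scaling on simulated data, with known changes in genes well above background. Bounds and the search for motif letters were not part of that test. Scripts ran under Python 3.11.15 with pandas 2.3.3 and numpy 2.4.6, lowess came from statsmodels 0.14.6, and plots were drawn with matplotlib 3.10.9.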

Additional observations from a re-analysis of the deposited data

How the results depend on the processing

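The count of regulators at least 1.5-fold lower was 11 under each other scaling, with the mean of probe sets, with no filter and with background at the 90th percentile, 10 when values were floored at background, 12 with the lowest-mean probe set (gaining *Tfdp1*), 8 among genes above background in both arrays, and 3 under the 2-fold limit, which also leaves 25 lower and 2 higher genes of all detected. *Ccne2* lost the limit when floored (-0.23). The count of higher regulators was 0 under every alternative run. The median of all detected regulators ran from -0.27 to -0.17. The group of E and A cyclins moved to a median of -0.25 when floored and -0.27 among genes above background in both arrays, the group of *Skp2*, Cks genes, *Fbxo5* and *Chek1* to -0.71 with the lowest-mean probe set and -0.51 above background in both arrays, and the CDC25 and Wee1 group to -0.38 with no filter, which adds *Cdc25c*. Except for *E2f5* and *Tfdp2*, which lie within 0.01 of 0, no regulator changed sign. Low signal limits *Ccne2*, *E2f8*, *Chek1*, *Cdkn3* and *Foxm1* most, and with 1 array per condition no alternative measures differences between mice.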
